A study of Rattus norvegicus with 13 samples.

Results

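Gene expression in the frontal cortex of rats was compared between animals that had received a lateral fluid percussion injury and animals that had gone through the same procedure without the blow. The comparison was made of the 7 samples that the labels place in this experiment, out of 13 in the series, and it ran across every gene whose probe was well above background on all arrays of either group. The other 6 samples belonged to a second model, head acceleration rotational injury, with a sham group of its own. All rats were male Sprague–Dawley animals, and total RNA was taken 1 month after trauma and hybridised to 1-colour arrays. The percussion trauma group held 3 samples and the percussion sham group 4; sham rats were anaesthetised and operated on in full but received no trauma. The labels do not give the hemisphere or the severity of the blow, nor whether a sample is 1 rat. If samples were not separate rats, p-values measure only the spread between these samples.

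In lateral fluid percussion a brief pulse of fluid strikes the intact dura through an opening in the skull, which deforms the underlying cortex and shears axons. Tissue responses known from such injuries include hypertrophy of astrocytes, activation of microglia and macrophages, complement production, and scarring by fibroblasts of the meninges. Immediate early genes, in contrast, are switched on within minutes by neuronal firing.

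Levels below are log2 processed signal minus the 75th percentile of the array, so that 0 is the upper quartile of that array, and a difference is the trauma mean minus the sham mean on that log2 scale. The levels of different probes were not compared with each other. On 17100 genes tested with limma, 0 passed an adjusted p of 0.05, and the smallest adjusted p was 0.147. At an unadjusted p under 0.05, 1320 genes (7.72% of those tested) were higher and 631 (3.69%) lower in percussion trauma, 1951 in all against 855 that a 5% level gives. A gene that passed the filter through the trauma arrays alone was likely to be higher. In a fit of the 15592 genes above background on all 7 arrays, 1081 were higher and 652 lower at that level. The 3 trauma arrays all lay above the 4 sham arrays for 1034 genes (6.05%) and all below them for 652 (3.81%). The difference was at least 1 in size for 189 genes, of which 151 were higher in trauma. Because no gene passed, the members below are described by their values, and their unadjusted calls are read against those percentages.

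The number of genes passing depended on single arrays. It was 19 without trauma replicate 3, 6 without trauma replicate 2, 1 without sham replicate 1 (Igsf6), and between 0 and 2 when an array of the rotational model was left out. The 19 included Mrc1, Il15, Lrp1, Nup188 and Fgfr1, and 18 of the 19 differences were positive. Without trauma replicate 3 the unadjusted calls were 2018 higher and 1169 lower. The split of the unadjusted calls also depended on the scaling. Centring each array on its median instead of its 75th percentile gave 803 higher and 1333 lower, and moved the median difference of all genes from 0.01 to -0.06.

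All 7 arrays lay on 1 slide and were scanned together, but the trauma arrays occupied its first column and the sham arrays its second. The share of spots well above background was 72.7% to 73.8% on the trauma arrays and 67.6% to 69.4% on the sham arrays, so slide column and group cannot be told apart here. On the slide of the rotational model, where sham lay in the first column and trauma in the second, the shares were 73.1% to 74.1% in sham and 67.0% to 72.5% in trauma. With the tested genes divided by mean signal into 4 groups of 4275, 64.8% of the dimmest group were higher in percussion trauma and 37.8% of the brightest. The part of slide column in the values below was not tested. Neurons, astrocytes, oligodendrocytes and microglia each had all 5 of their markers above background on all 7 arrays, and the labelled tissue was frontal cortex.

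**Figure D1:**
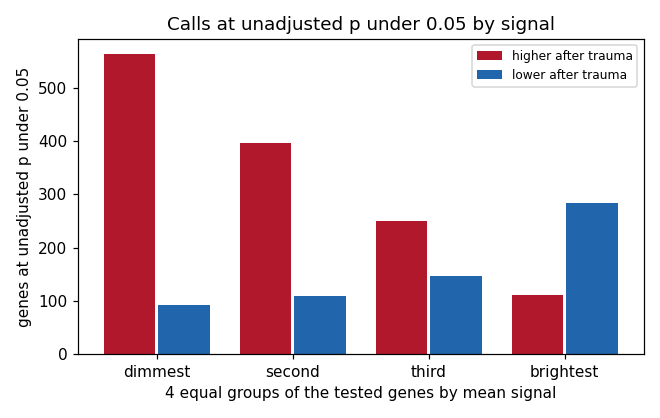
Number of genes at an unadjusted p under 0.05 (vertical axis) in 4 equal groups of the 17100 tested genes ordered by mean signal, with genes higher after percussion trauma in red and lower in blue. In the dimmest group 564 genes were higher and 92 lower, while in the brightest 111 were higher and 283 lower.

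Genes of the meninges and of fibrillar matrix showed the largest differences. All 35 tested members had a higher mean in percussion trauma. Of these, 23 were at an unadjusted p under 0.05 (65.7% against 7.72% of all genes). For 16 all trauma arrays lay above all sham arrays, as they did for 6.05% of all genes. The median difference over the 35 was 0.88, beside 0.01 over all genes. Col1a1, the main chain of type I collagen, was at 0.93, 0.30 and -0.27 on trauma arrays 1, 2 and 3 and -0.78, -1.45, -1.43 and -2.29 on sham arrays 1 to 4. The trauma arrays were all above the sham arrays, with the lowest trauma array 0.52 above the highest sham array. Its difference was 1.81 ± 0.39 (SE; limma adjusted p = 0.206), a fold of 3.51, and a second Col1a1 probe differed by 1.07. The probe lies at chr10:83639260-83639319 in the rn4 build that the array files use.

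Igf2, a growth factor made by meninges and choroid plexus in adult brain, was at 3.64, 2.94 and 2.67 on trauma arrays 1, 2 and 3 and 1.93, 1.19, 1.59 and 0.82 on sham arrays 1 to 4. The groups did not overlap, and the difference was 1.70 ± 0.34 (SE; limma adjusted p = 0.188). Fn1, which encodes fibronectin, was at 0.57, 0.09 and -0.25 on trauma arrays 1, 2 and 3 and -0.67, -0.63, -0.42 and -0.99 on sham arrays 1 to 4, with a difference of 0.82 ± 0.18 (SE; limma adjusted p = 0.216). Ogn and Fmod, small leucine-rich proteoglycans that bind collagen fibrils, differed by 1.34 and 1.34. Col1a2, the second chain of type I collagen, differed by 1.29, and Ptgds, which makes prostaglandin D2 and is abundant in leptomeninges, by 0.88. Lum, for lumican, was above background on all 3 trauma arrays and on no sham array. Its mean was at least 2.60-fold higher in trauma. On each sham array the bound took the larger of the gene's own value and the lowest signal well above background.

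The trauma arrays were not alike in this group. Averaged over the 35 genes, the deviation from each gene's mean over the 7 arrays was 1.11 on trauma array 1, 0.40 on trauma array 2 and 0.02 on trauma array 3, against 0.01, -0.49, -0.29 and -0.77 on sham arrays 1 to 4. Trauma array 3 was thus level with sham array 1. Trauma array 1 and sham array 1, each the highest of its group, both lay in row 1 of the slide. Without trauma replicate 1 the median difference was 0.64 and 12 members were at an unadjusted p under 0.05. The summed level of 5 markers of meningeal fibroblasts, with an array's upper quartile set to 100, ranged from 820 to 1648 in trauma and from 272 to 672 in sham. Members were counted if they were above background on all arrays of either group. A member that passed through the trauma arrays alone was likely to be higher. Among members above background on all 7 arrays, those higher at an unadjusted p under 0.05 were 21 of 32 for meninges and matrix (median 0.85), 9 of 21 for reactive astrocytes (0.41), 9 of 18 for complement (0.36), 9 of 13 for MHC class II (0.32), 4 of 11 for border macrophages (0.35), 6 of 27 for cytokines (0.14), 5 of 20 for NF-kB (0.14) and 0 of 4 for T and B cells (0.0013).

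In the rotational model, where the columns of the slide were the other way round, the median difference of the same 35 genes was 0.89. The amount of meninges left on each cortex was not recorded in the labels, and its part in the values that follow was not tested. In whole tissue, more cells of a type and more RNA per cell cannot be told apart.

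**Figure D2:**
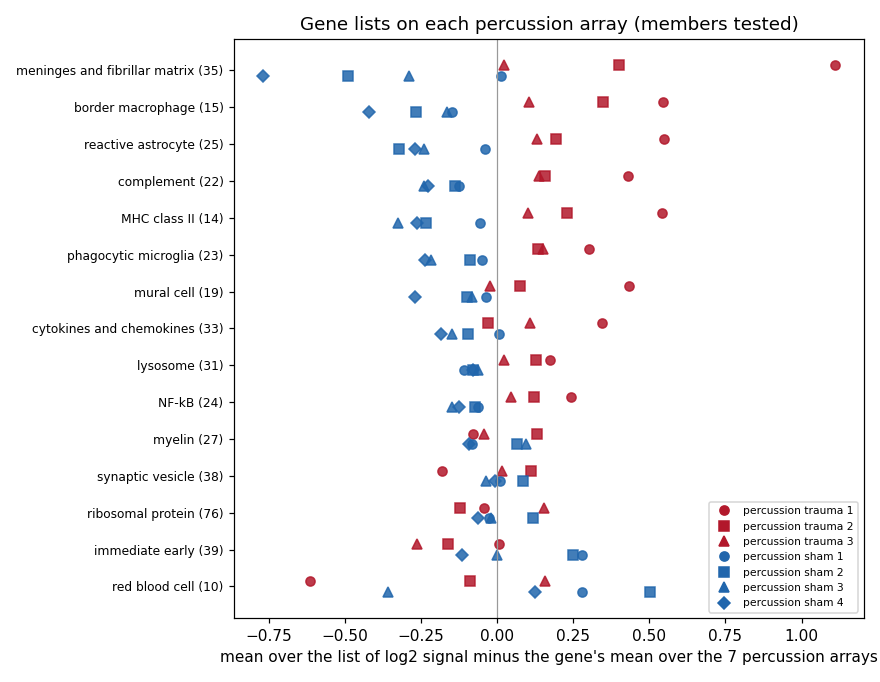
For 15 gene lists (rows, with the number of members tested), each point is 1 array: the mean over the list of log2 signal minus the gene's mean over the 7 percussion arrays, with trauma in red and sham in blue. Meninges and fibrillar matrix run from -0.77 on sham array 4 to 1.11 on trauma array 1, while myelin, synaptic vesicle and ribosomal protein genes lie near 0 with the groups mixed.

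Other genes with large differences included several that are known from meninges, choroid plexus or vessels. Aqp1, a water channel of the choroid plexus, was at -0.43, -1.27 and -2.35 on trauma arrays 1, 2 and 3 and -3.11, -2.70, -2.55 and -4.00 on sham arrays 1 to 4, with a difference of 1.74 ± 0.52 (SE; limma adjusted p = 0.277). The lowest trauma array was 0.21 above the highest sham array, and the trauma arrays spanned 1.92. Slc6a20a, a proline transporter, differed by 1.54, Cpz, a carboxypeptidase of the extracellular matrix, by 1.53, and Angpt2, an angiopoietin that loosens vessels, by 1.50. Of 10 choroid plexus and ependymal genes tested, 5 had a higher and 5 a lower mean, and the median difference was 0.13. At an unadjusted p under 0.05, 3 were higher (30%) and 1 lower (10%). The median was 0.05 without trauma replicate 1, 0.30 without trauma replicate 2 and 0.33 without sham replicate 1. Choroid plexus markers summed to between 24.0 and 56.2 in trauma and between 11.3 and 27.7 in sham, on the scale on which the upper quartile is 100. Of that marker list, Kcnj13, a potassium channel, and Ttr, the thyroid hormone carrier transthyretin, were above background on all 7 arrays and differed by 1.27 and 1.28; the groups overlapped for Ttr. Folr1, a folate receptor, was above background on all 3 trauma arrays and on no sham array, at least 1.67-fold higher in trauma. Kl was below background on all 7 arrays, and Clic6 was above it on 1 array of each group.

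Genes of mural cells, the pericytes and smooth muscle of vessels, had a median difference of 0.27 over 19 members. At an unadjusted p under 0.05, 8 were higher (42.1% against 7.72% of all genes) and 0 lower. Acta2, smooth muscle actin, differed by 0.55, Tpm2, a tropomyosin, by 0.73, and Pdgfrb, the PDGF receptor of pericytes, by 0.45. This list rested in part on 1 array: without trauma replicate 1 the median was 0.17 and 3 of its members were at that level, and without sham replicate 4 the count was 5. The markers of mural cells summed to between 213 and 336 in trauma and to between 160 and 213 in sham. Matrix proteases and their inhibitors had 7 of 23 members higher (30.4%), including Mmp14, Mmp2 and Timp1, and 1 lower, Timp4. Without trauma replicate 1 the count of higher members was 0.

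Genes that mark reactive astrocytes were higher in percussion trauma, while those of resting astrocytes had a median difference of 0.08. Of 31 genes of the reactive list on the array, 25 were tested. All 25 had a higher mean, 10 were at an unadjusted p under 0.05 (40.0%), and the median difference was 0.41. Without trauma replicate 1 the median was 0.24, and 9 members were at that level. Gfap, the intermediate filament of astrocytes, was at -0.18, 0.34 and 0.45 on trauma arrays 1, 2 and 3 and -0.82, -0.70, -1.30 and -0.27 on sham arrays 1 to 4. The groups did not overlap, the gap being 0.09 between trauma array 1 and sham array 4, and the difference was 0.98 ± 0.31 (SE; limma adjusted p = 0.294). A second Gfap probe differed by 0.71. Trauma array 1, the highest in meningeal genes, was the lowest of the 3 trauma arrays for Gfap, but the reactive list as a whole was highest there. Its mean deviation was 0.55, 0.19 and 0.13 on trauma arrays 1 to 3 and -0.04, -0.32, -0.24 and -0.27 on sham arrays 1 to 4. Trauma array 1 was also the highest for complement, at 0.43 against 0.16 and 0.14 on the other trauma arrays, for MHC class II, at 0.54 against 0.23 and 0.10, and for border macrophages, at 0.55 against 0.35 and 0.10.

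Vim, or vimentin, a filament of both astrocytes and fibroblasts, was at 1.81, 1.05 and 0.24 on trauma arrays 1, 2 and 3 and 0.20, -0.21, 0.16 and -0.30 on sham arrays 1 to 4, an order among trauma arrays that is the reverse of that of Gfap. Its difference was 1.07 ± 0.30 (SE; limma adjusted p = 0.254). Serping1, the inhibitor of the first complement component, differed by 1.00, Cp, the copper-carrying ferroxidase ceruloplasmin, by 1.14, Aspg by 1.17, Stat3 by 0.31 and Cd44 by 0.58. Stat3 is a transcription factor through which astrocytes become reactive. Of 19 genes of resting astrocytes, 3 were higher (15.8% against 7.72% of all genes) and 0 lower at an unadjusted p under 0.05. Their median was 0.08 (-0.016 without trauma replicate 3), with single genes from -0.66 to 0.88. The summed level of 5 astrocyte markers that do not include Gfap was 4252 to 5557 in trauma and 4092 to 4879 in sham.

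**Figure D3:**
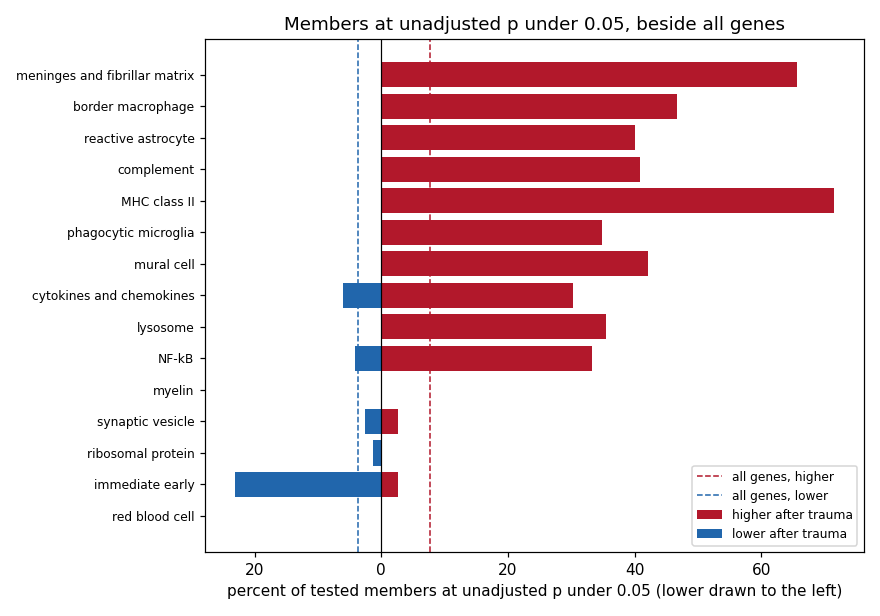
Percent of the tested members of 15 gene lists that were at an unadjusted p under 0.05, drawn to the right in red where higher after percussion trauma and to the left in blue where lower; dashed lines give the shares over all genes, 7.72% and 3.69%. MHC class II reaches 71.4% and meninges and fibrillar matrix 65.7%, and immediate early genes reach 23.1% on the lower side.

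Complement genes were among those higher in trauma. Of 22 tested members, 20 had a higher mean, 9 were at an unadjusted p under 0.05 (40.9%), and the median difference was 0.37. C4a, whose product is cleaved early in the classical pathway, was at 2.50, 2.29 and 2.44 on trauma arrays 1, 2 and 3 and 1.58, 1.44, 1.53 and 1.81 on sham arrays 1 to 4. The 3 trauma arrays lay within 0.21 of each other and above all sham arrays, and the difference was 0.82 ± 0.24 (SE; limma adjusted p = 0.264). The rat genome has a near-identical C4 copy, which the probe may not tell apart from C4a. C1s and C1r, the proteases of the first component, differed by 0.85 and 0.77, and Cfd, factor D of the alternative pathway, by 0.98. C1qa, C1qb and C1qc, the chains of C1q, which in brain come mainly from microglia, differed by 0.05, 0.04 and 0.02, and their groups overlapped. Without trauma replicate 1 the list had a median of 0.28 and 4 members at that level.

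Genes of MHC class II presentation had the highest share of members at an unadjusted p under 0.05, with 10 of 14 (71.4%) higher, 0 lower and a median difference of 0.35. Of the 14, 12 had a higher mean and 2, Rfx5 and RT1-DMa, a lower one. The array held 21 genes of this list, and those not tested included RT1-Ba and Ciita, above background on no trauma array and no sham array. Class II molecules are heterodimers that present peptides to CD4 T cells and in brain are carried by macrophages and activated microglia. Their genes share upstream elements, the X box bound by the RFX complex and the Y box bound by NF-Y. For that reason the promoters of the 3 class II chains with values here are printed, from RefSeq on GRCr8, as the 160 bases before the start site, 5′ to 3′ on the gene's strand, with matches in capitals. RT1-Da lies at chr20:4515255-4515414 on the plus strand, RT1-Bb at chr20:4604119-4604278 on the minus strand and RT1-Db1 at chr20:4560163-4560322 on the minus strand.
RT1-Da: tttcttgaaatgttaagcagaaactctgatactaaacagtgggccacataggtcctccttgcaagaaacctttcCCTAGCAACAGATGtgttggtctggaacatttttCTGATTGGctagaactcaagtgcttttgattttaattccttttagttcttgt
RT1-Bb: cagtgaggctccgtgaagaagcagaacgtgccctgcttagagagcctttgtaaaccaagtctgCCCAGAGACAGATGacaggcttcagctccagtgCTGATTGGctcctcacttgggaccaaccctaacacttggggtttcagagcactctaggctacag
RT1-Db1: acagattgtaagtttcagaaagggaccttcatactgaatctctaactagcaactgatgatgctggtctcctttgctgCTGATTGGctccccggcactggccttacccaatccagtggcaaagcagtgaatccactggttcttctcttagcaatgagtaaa

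The Y box, searched as CTGATTGG on both strands of the 250 bases before each start, was found 52 bases before the start in RT1-Da, 64 in RT1-Bb and 83 in RT1-Db1. Of 11 class II list genes with a promoter in the table, 4 held it (36.4%, the other being Rfx5), against 3.19% of 33469 promoters. A list gene counted if any of its starts held the box, while the 3.19% counts each promoter singly, so these shares have unlike units. The X box consensus matched in RT1-Da and RT1-Bb, 86 and 97 bases before the start, and in 0.0837% of all promoters. In both the X box lies upstream of the Y box and does not overlap it. These matches are a description of letters and show no binding.

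RT1-Bb, a beta chain, was at -1.73, -2.04 and -2.76 on trauma arrays 1, 2 and 3 and -3.76, -3.37, -2.96 and -4.36 on sham arrays 1 to 4. All trauma arrays were above all sham arrays, and the difference was 1.44 ± 0.32 (SE; limma adjusted p = 0.216), a fold of 2.71. RT1-Da, an alpha chain, was at -1.54, -3.10 and -2.70 on trauma arrays 1, 2 and 3 and -3.26, -3.72, -3.90 and -3.98 on sham arrays 1 to 4. Its trauma array 1 stood 1.16 above the next trauma array, and the difference was 1.27 ± 0.34 (SE; limma adjusted p = 0.236). RT1-Db1, a beta chain, differed by 0.96 ± 0.35 (SE; limma adjusted p = 0.351), and its groups overlapped. Probes of the RT1 family may share sequence with its other members.

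Cd74, the invariant chain that escorts class II molecules, differed by 1.30, and RT1-DMb, which helps load their peptides, by 0.32; RT1-DMa, its partner chain, differed by -0.07. Ctss and Lgmn, proteases that cut the invariant chain, differed by 0.38 and 0.18. Rfx5, a part of the RFX complex, had a lower mean, at -4.67, -4.50 and -4.59 on trauma arrays 1, 2 and 3 and -3.11, -4.45, -4.45 and -3.88 on sham arrays 1 to 4; all trauma arrays were below all sham arrays, with a difference of -0.61 ± 0.37 (SE; limma adjusted p = 0.546). The class II count was 5 without trauma replicate 1 and also 5 without sham replicate 3, and the median was 0.34 in each case. MHC class I genes had 1 of 21 members higher at an unadjusted p under 0.05 (4.76%), a share below that of all genes.

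Macrophage genes differed more than resting microglial genes. Of 15 genes of border macrophages, which live in the meninges and around vessels, 7 were at an unadjusted p under 0.05 (46.7%), with a median difference of 0.42. These 15 were the tested ones of 20 on the array, and 13 had a higher mean and 2 a lower one. For Lyve1, a further gene of these macrophages, the groups overlapped, and the difference ran from -0.34 to 0.11 across the alternative runs. Clec4a3, a C-type lectin of myeloid cells, was at -2.87, -2.92 and -2.85 on trauma arrays 1, 2 and 3 and -3.67, -3.55, -3.64 and -3.57 on sham arrays 1 to 4. The trauma arrays spanned 0.06 and the sham arrays 0.12, the gap between the groups was 0.64, and the difference was 0.73 ± 0.12 (SE; limma adjusted p = 0.165). Its probe lies at chr4:159473860-159473919 (rn4). Cd163, the haemoglobin scavenger receptor, was at -3.89, -4.45 and -4.84 on trauma arrays 1, 2 and 3 and -5.48, -5.70, -5.83 and -5.96 on sham arrays 1 to 4, with a difference of 1.35 ± 0.31 (SE; limma adjusted p = 0.216). It was above background on 1 of the 4 sham arrays. Mrc1, the mannose receptor, was above background on all 3 trauma arrays and on no sham array, and its mean was at least 1.50-fold higher in trauma, with trauma array 3 at -7.31 and the other trauma arrays at -5.86 and -5.55. Without trauma replicate 1 the median was 0.30 with 6 members at that level.

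Of 23 genes of phagocytic microglia, 8 were higher (34.8% against 7.72% of all genes) and 0 lower at an unadjusted p under 0.05. Their median was 0.31. Lgals3, the lectin galectin-3, differed by 1.20, Cd14, a receptor for bacterial lipopolysaccharide, by 0.82, Gpnmb by 0.67 and Cd68, a lysosomal protein of phagocytes, by 0.66. Of 24 genes of resting microglia 3 were higher at that level (12.5% against 7.72% of all genes), with a median of 0.11. The 5 microglial markers summed to 663 to 802 in trauma and 687 to 877 in sham, ranges that overlap. Cx3cr1, the fractalkine receptor, differed by -0.40, and Csf1r, the receptor for colony stimulating factor, by 0.47.

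**Figure D4:**
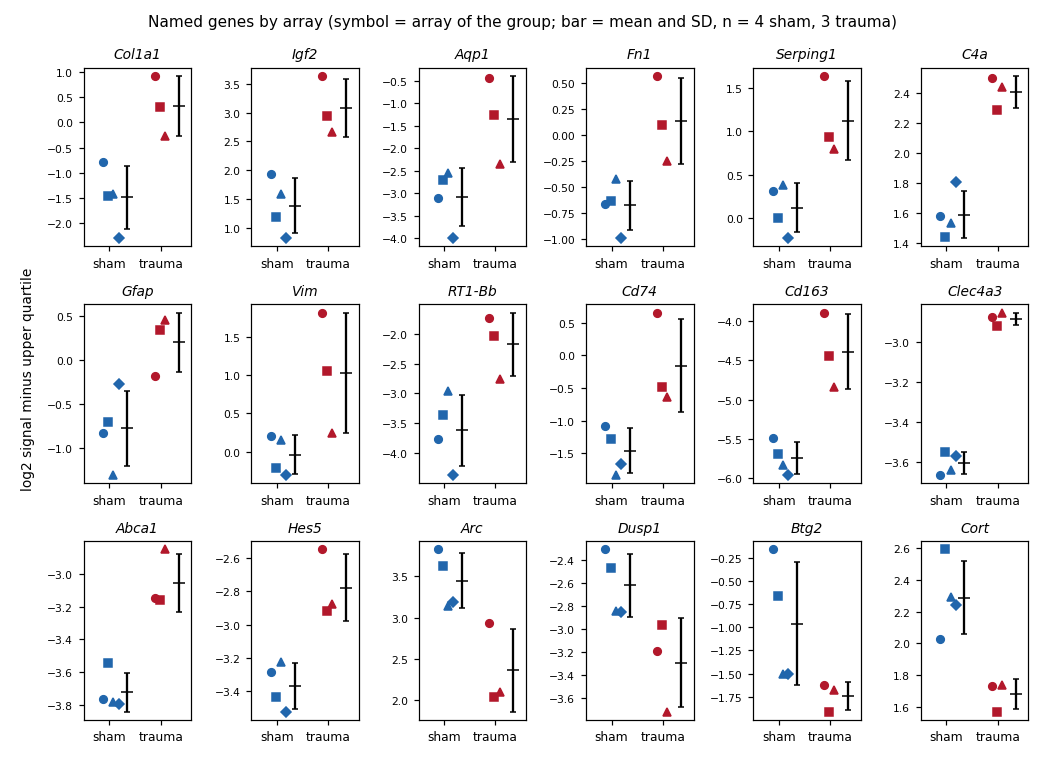
Values of 18 genes on each array (log2 signal minus the array's upper quartile; vertical axes differ between panels), with sham in blue and trauma in red; horizontal marks and bars give mean and SD over 4 sham and 3 trauma arrays. Clec4a3, C4a and Abca1 are tight within both groups, Col1a1, Igf2 and Vim are highest on trauma array 1 (circle) and, within trauma, lowest on trauma array 3 (triangle), and Arc, Dusp1, Btg2 and Cort are lower in trauma.

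Of 31 lysosomal genes, 11 were higher (35.5% against 7.72% of all genes) and 0 lower at an unadjusted p under 0.05. Their median difference was 0.17. Grn, the precursor of granulins, was at 1.50, 1.58 and 1.51 on trauma arrays 1, 2 and 3 and 1.11, 1.20, 1.19 and 1.32 on sham arrays 1 to 4, and its difference was 0.33 ± 0.08 (SE; limma adjusted p = 0.221). The lysosomal proteases Ctsc and Ctsk differed by 0.73 and 0.53, and Gusb, a glucuronidase, by 0.36. The count was 6 without trauma replicate 1 and 16 without trauma replicate 3. Among genes of sterol export and lipoproteins, 6 of 30 were higher (20%), including Abca1, which loads cholesterol onto apolipoproteins. Abca1 was at -3.15, -3.16 and -2.85 on trauma arrays 1, 2 and 3 and -3.77, -3.54, -3.78 and -3.80 on sham arrays 1 to 4, so that the lowest trauma array was 0.38 above the highest sham array, and the difference was 0.67 ± 0.11 (SE; limma adjusted p = 0.165). Apoe, the main apolipoprotein of brain, differed by 0.13. Genes of sterol synthesis had 1 of 26 higher (3.85%) and 3 lower (11.5% against 3.69% of all genes), with a median of -0.05.

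At an unadjusted p under 0.05, 10 of 33 cytokine and chemokine genes were higher (30.3%) and 2 lower (6.06%). The shares over all genes were 7.72% and 3.69%, and the list median was 0.21. Tnfrsf1a, a receptor for tumour necrosis factor, differed by 0.66, and Cxcl13, a chemokine that guides B lymphocytes, by 0.91, with Cxcl13 above background on 1 of the 4 sham arrays. Ccl3, a chemokine of microglia and macrophages, and Il15 were above background on all 3 trauma arrays and on no sham array, at least 1.98-fold and at least 2.05-fold higher in trauma. The groups overlapped for Il15. Of the 33 tested, 3 were above background on no sham array. These and Cxcl13 had passed the filter through the trauma arrays alone. The 2 lower were Ccl9 and Ccl11, at -1.09 and -1.19, each above background on 2 of the 3 trauma arrays. In the NF-kB list 8 of 24 were higher (33.3%), among them the receptor Tlr2 (0.44). Nfkbia, the inhibitor of NF-kB, was lower at -0.53. The receptors Tlr7 and Tlr4, above background on no sham array, were at least 1.60-fold and at least 1.65-fold higher in trauma. The groups overlapped for Tlr4, and across the alternative runs the difference of Tlr7 fell as low as 0.010. Cd274, which encodes the checkpoint ligand PD-L1, was at -5.67, -4.64 and -5.43 on trauma arrays 1, 2 and 3 and -6.42, -6.23, -6.40 and -6.19 on sham arrays 1 to 4. It was above background on all 3 trauma arrays and on no sham array, and its mean was at least 2.08-fold higher in trauma. Interferon response genes had 2 of 29 members higher (6.90%), a share below that of all genes.

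Of 26 T and B lymphocyte genes on the array only 9 were tested. Of these, 7 had a higher mean, 3 were higher (33.3%) and 0 lower at an unadjusted p under 0.05, and the median difference was 0.30; the 3 were Cd4, Cd247 and Cd3g, each above background on all trauma arrays and on no sham array. Cd4, which rat macrophages carry too, was at least 1.57-fold higher in trauma, and Cd247, a chain of the T cell receptor complex, at least 1.64-fold. Across the alternative runs their differences fell as low as 0.048 and 0.016. Cd3g, of that complex, differed by 0.79 (limma adjusted p = 0.418), and its groups overlapped. Cd3d, of the same complex, was above background on all 7 arrays and differed by 0.11. Of the 5 T lymphocyte markers, Cd3e and Cd2 were below background on all 7 arrays and Lck was above it on 2 trauma arrays and on no sham array. The 5 summed to between 9.90 and 11.9 in trauma and between 8.86 and 10.8 in sham, ranges that overlap.

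Immediate early genes differed in the other direction. Of 39 tested members, 30 had a lower mean in percussion trauma, 9 were lower and 1 higher at an unadjusted p under 0.05 (23.1% lower against 3.69% of all genes), and the median difference was -0.16. Arc, a synaptic protein made on neuronal firing, was at 2.94, 2.05 and 2.10 on trauma arrays 1, 2 and 3 and 3.83, 3.62, 3.15 and 3.19 on sham arrays 1 to 4. All trauma arrays were below all sham arrays, the difference was -1.08 ± 0.23 (SE; limma adjusted p = 0.188), and the probe lies at chr7:112772025-112772084 (rn4). Dusp1, a phosphatase that switches off MAP kinases, was at -3.19, -2.97 and -3.72 on trauma arrays 1, 2 and 3 and -2.31, -2.47, -2.84 and -2.86 on sham arrays 1 to 4, with a difference of -0.67 ± 0.18 (SE; limma adjusted p = 0.232). Btg2, an antiproliferative early gene, was at -1.63, -1.91 and -1.68 on trauma arrays 1, 2 and 3 and -0.16, -0.66, -1.50 and -1.51 on sham arrays 1 to 4. Sham arrays 1 and 2 were high and sham arrays 3 and 4 close to the trauma arrays, with a gap of 0.12 between the groups, and the difference was -0.78 ± 0.28 (SE; limma adjusted p = 0.346).

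Npas4, a transcription factor of active neurons, was above background on 2 of the 3 trauma arrays and differed by -1.38, Junb by -0.65, Gadd45g by -0.59, Klf2 by -0.47, Nr4a1 by -0.50 and Ier2 by -0.63; Ier3, a survival gene also induced in inflammation, was the member that was higher, at 0.52. For Btg2, Npas4, Junb and Ier2 sham arrays 1 and 2 were the highest of the 7, and sham arrays 3 and 4 were nearer to trauma. The mean deviation over the list was 0.28 and 0.25 on sham arrays 1 and 2, 0.00 and -0.12 on sham arrays 3 and 4, and 0.01, -0.16 and -0.26 on trauma arrays 1 to 3. The median deviation was smaller on the high arrays, at 0.10 and 0.17 on sham arrays 1 and 2. The count of lower members was 3 without trauma replicate 3, 5 without trauma replicate 2 and 6 without sham replicate 2, and 12 without sham replicate 4.

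The cyclic AMP response element, through which CREB drives early genes, was searched as TGACGTCA on both strands (it is its own reverse complement). It was found in 6 of 29 early genes with a promoter in the table (20.7%), against 1.59% of all promoters. An early gene counted if any of its starts held the element, while the 1.59% counts each promoter singly, so these shares have unlike units. The 6 genes were Btg2, Crem, Dusp1, Ier2, Jund and Plk2. The promoters of the 3 of these that were at an unadjusted p under 0.05 and lower follow, from RefSeq on GRCr8, as the 250 bases before the start on the gene's strand with the element in capitals. Dusp1 lies at chr10:17184603-17184852 on the plus strand, Btg2 at chr13:48087691-48087940 on the minus strand and Ier2 at chr19:40399123-40399372 on the plus strand.
Dusp1: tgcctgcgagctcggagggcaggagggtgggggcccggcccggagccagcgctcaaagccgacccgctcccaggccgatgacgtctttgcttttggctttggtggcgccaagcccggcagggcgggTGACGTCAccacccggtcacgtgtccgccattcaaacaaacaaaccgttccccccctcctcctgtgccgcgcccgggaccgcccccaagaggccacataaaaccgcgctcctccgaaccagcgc
Btg2: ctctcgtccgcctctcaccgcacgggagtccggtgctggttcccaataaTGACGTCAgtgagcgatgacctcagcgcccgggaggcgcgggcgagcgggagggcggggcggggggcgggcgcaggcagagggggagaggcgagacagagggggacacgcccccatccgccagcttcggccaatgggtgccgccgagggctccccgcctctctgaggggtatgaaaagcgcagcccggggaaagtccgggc
Ier2: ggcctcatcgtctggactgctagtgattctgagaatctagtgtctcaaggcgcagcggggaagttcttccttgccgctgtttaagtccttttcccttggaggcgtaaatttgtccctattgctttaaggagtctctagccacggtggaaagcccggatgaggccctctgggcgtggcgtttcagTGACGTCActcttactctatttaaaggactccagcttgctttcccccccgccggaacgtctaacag

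The element begins 124 bases before the start in Dusp1, 201 in Btg2 and 66 in Ier2. Crem, Jund and Plk2 hold it too and differed by -0.09, -0.02 and 0.01.

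The medians of the neuronal lists were near 0, while single neuronal genes had lower values. Rbfox3, the nuclear antigen NeuN of mature neurons, was at -3.63, -3.49 and -3.40 on trauma arrays 1, 2 and 3 and -3.28, -2.85, -3.22 and -2.66 on sham arrays 1 to 4. All trauma arrays were below all sham arrays, and the difference was -0.50 ± 0.13 (SE; limma adjusted p = 0.238). Snap25, of the vesicle fusion machinery, differed by -0.29, and the other neuron markers, Syt1, Tubb3 and Nefl, by 0.04, 0.00 and 0.06. The 5 neuron markers summed to 3465 to 3962 in trauma and 3881 to 4369 in sham, ranges that overlap.

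Cort, for cortistatin, a peptide of inhibitory neurons, was at 1.73, 1.57 and 1.74 on trauma arrays 1, 2 and 3 and 2.03, 2.59, 2.29 and 2.24 on sham arrays 1 to 4, with all trauma arrays below all sham arrays and a difference of -0.61 ± 0.14 (SE; limma adjusted p = 0.219). Npy, a peptide of the same class of cells, was at 3.87, 3.78 and 3.97 on trauma arrays 1, 2 and 3 and 4.07, 4.27, 4.14 and 4.16 on sham arrays 1 to 4, again without overlap, with a difference of -0.28 ± 0.07 (SE; limma adjusted p = 0.224); a second Npy probe differed by -0.18. Sst and Pvalb, which mark the main classes of cortical interneurons, differed by -0.18 and -0.30. Of 35 interneuron and neuropeptide genes, 3 were lower (8.57% against 3.69% of all genes) and 0 higher at an unadjusted p under 0.05. Their median was -0.03. Voltage-gated channel genes had 6 of 50 lower (12% against 3.69% of all genes) and 0 higher, with a median of -0.03. The lower ones included Scn1a (-0.36), Scn4b (-0.46) and Kcnq3 (-0.36). Without trauma replicate 1 the count of lower members was 1.

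Synaptic vesicle genes had 1 of 38 higher and 1 lower, with a median of -0.03, and myelin genes had 0 of 27 in either direction, with a median of -0.02. Ribosomal protein genes had 0 of 76 higher and 1 lower, with a median of 0.00, and oxidative phosphorylation genes had 1 of 67 higher and 0 lower, with a median of -0.05. The 10 red blood cell genes tested all had a lower mean in trauma, with a median of -0.37, but 0 were at an unadjusted p under 0.05. That count was 5 without sham replicate 3 (median -0.58) and 5 without trauma replicate 3 (median -0.52). It was 0 without any other percussion array. The markers of red blood cells summed to 7715 to 12127 in trauma and 9367 to 14673 in sham, ranges that overlap.

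The genes with the smallest p were not those with the largest differences. Nup188, of the nuclear pore, was at -3.56, -3.22 and -3.56 on trauma arrays 1, 2 and 3 and -4.06, -4.14, -3.99 and -4.10 on sham arrays 1 to 4, with a difference of 0.62 ± 0.09 (SE; limma adjusted p = 0.16). Fut4, a fucosyltransferase that makes the Lewis X sugar, was at -3.81, -3.58 and -3.77 on trauma arrays 1, 2 and 3 and -4.40, -4.30, -4.39 and -4.42 on sham arrays 1 to 4, with a difference of 0.66 ± 0.11 (SE; limma adjusted p = 0.165). The groups were 0.43 apart for Nup188 and 0.49 apart for Fut4. Hes5, a transcription factor of the Notch pathway kept on in astrocytes and progenitors, was at -2.55, -2.92 and -2.87 on trauma arrays 1, 2 and 3 and -3.29, -3.44, -3.22 and -3.52 on sham arrays 1 to 4, with a difference of 0.59 ± 0.10 (SE; limma adjusted p = 0.175). Of 27 Notch pathway genes 3 were higher (11.1% against 7.72% of all genes) and 0 lower at an unadjusted p under 0.05. Their median difference was 0.07, and it was -0.0028 with median scaling. Among genes with lower values, Yipf3 differed by -0.32 and Coro1a, an actin regulator of leukocytes and neurons, by -0.38.

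Of the tested genes, 413 were above background on all trauma arrays and on no sham array, and 1, Ptk6, the other way round. The lowest signal well above background was -7.80 to -7.42 on the trauma arrays and -6.94 to -6.71 on the sham arrays, so dim genes could be called on trauma arrays at signals at which they were not called on sham arrays, and the count of 413 moves with that floor. Ptges, which makes prostaglandin E2, was at least 2.97-fold higher in trauma, C1qtnf1, a secreted relative of C1q, at least 2.60-fold, Susd5 at least 2.18-fold, Ggact at least 2.17-fold, A3galt2 at least 2.11-fold and Bicc1 at least 2.09-fold. The groups overlapped for Susd5. All such lower limits of fold belong to the main processing, and differences were smaller in some alternative runs. Ptk6, an intracellular tyrosine kinase of epithelia, was at -8.03, -8.84 and -8.75 on trauma arrays 1, 2 and 3 and -5.81, -5.49, -6.31 and -5.67 on sham arrays 1 to 4, at least 3.58-fold lower in trauma.

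The percussion difference was set against the difference between rotational trauma and its own sham by a contrast of both. Of the 17100 genes 0 passed an adjusted p of 0.05, with a smallest value of 0.0833 for Hes5 and Galns, and 1448 (8.47%) were at an unadjusted p under 0.05. The 2 models used separate shams, each on its own slide and with columns the other way round, so a column effect would enter this contrast from both sides. Hes5 differed by 0.59 after percussion and by -0.49 after rotation, and Galns, a lysosomal sulfatase above background on no percussion sham array, was at least 1.50-fold higher after percussion and differed by -0.60 after rotation. Across the alternative runs the percussion difference of Galns fell as low as 0.20. Ccng1, a p53 target, differed by 0.12 after percussion and by -2.33 after rotation. Arc, at -1.08 after percussion, was at 0.49 after rotation, and Ddit4, a stress-induced inhibitor of mTOR, was at -0.45 and 0.87. The median of the class II list was 0.35 after percussion and 0.05 after rotation, and that of complement 0.37 and 0.14; the difference between the medians was not tested.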

How the data were processed

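Total RNA from frontal cortex was labelled with Cy3 and hybridised to Agilent 1-colour rat arrays, per the labels' protocols. The authors deposited scanner output made with Agilent Feature Extraction 10.5.1.1, per the file headers, and the intensity used is its processed signal, already background-subtracted. An authors' deposited log2 table of the same arrays served as an alternative; its values followed the scanner signals array by array. The depth of an array has no count, so the number of arrays limits the precision.

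Control spots and outlier flags were left out, spots of a probe averaged, and log2 signal was scaled to each array's 75th percentile. Probes well above background on all arrays of either percussion group were kept, 19862 probes for 17100 genes, of which 4457 have no symbol and are not named; the probe with the highest mean stood for a gene, and other probes had the same sign in 1675 of 2762 cases. Group means were fitted over all 13 arrays (4 groups) with limma 3.58.1 in R 4.3.3 and adjusted by Benjamini and Hochberg over all genes; the fit was tested on simulated data. The members and the 52 gene lists were chosen with earlier results of these data known. Genes named have the smallest p without overlap of the groups (up to 15 a direction), the largest differences, bounds or contrasts with rotation, or are list members: up to 8 a list at an unadjusted p under 0.05 and its first 3. Apoe, Ccl11, Cd44, Ciita, Crem, Ier2, Jund, Lgmn, Nr4a1, Plk2, Ptgds, Rfx5, RT1-Ba, RT1-DMa and RT1-DMb fall outside that rule and were named after their values were seen, as were some cell type markers. The text gives values for some of the genes the rule picks, and the others enter its counts only. Replicate numbers were not taken as pairs in the main fit (correlations of 0.32, -0.02 and 0.00 for replicates 1, 2 and 3). The arrays of the pair at 0.32 shared a slide row. Alternatives were other backgrounds, scalings, filters, probe rules, fits and leaving out each array. Promoter sequences are RefSeq's on GRCr8; array coordinates are those of rn4 in the files.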

Additional observations from a re-analysis of the deposited data

Results flagged for a closer look

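Among 362 named genes, 14 had 1 sham array far from the other 3 by Dixon's ratio, about the 1 in 20 that chance gives. Values are log2 signal minus the array's upper quartile. Sham array 1 stood apart for Timp1 (-0.078), E2f8 (-3.52), Nefm (2.61) and Aqp4 (3.57), and sham array 2 for Abca1 (-3.54) and Lpar6 (-2.64). Sham array 3 stood apart for Cd68 (-3.67), Gria1 (0.13), Ncf4 (-4.84), Mog (0.69), Htr1a (-5.65) and Gpi (4.33), and sham array 4 for Nfkbia (0.59) and Stat2 (1.18). For Abca1 and Lpar6 the array that stood apart was the sham array nearest to trauma, and for Cd68 it was the one farthest from it.

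Several list genes lay outside the test because they were above background on 2 of 3 trauma arrays, and on no sham array. Those given here were picked for a second-highest trauma value above every sham value and a positive difference, so their sign was fixed by that choice. Smad9, Mpo, Drd1, Foxp2, Gabrg3 and Oprm1 had the same calls but were not picked. Cd86 and RT1-CE10 were above background on 2 of 4 sham arrays and on no trauma array. The trauma minus sham log2 differences of the picked genes were 1.14 for Ccl4, a chemokine of microglia, 0.94 for F5 and 0.89 for Pros1, which act in coagulation, 0.79 for Anxa8, 0.14 for Il1rn, the interleukin 1 receptor antagonist, and 0.13 for Lck, a kinase of T cells. Signals at this level are near the background of the arrays, and these differences were not tested.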

How the results depend on the processing

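Among the gene lists whose share of calls was at least 3 times that of all genes, the medians of meninges, reactive astrocytes, complement, MHC class II, border macrophages and immediate early genes kept their sign in every alternative run. Genes passing an adjusted p of 0.05 numbered 3013 without a filter on dim probes (3798 for the contrast with rotation; 5070 genes then lower at an unadjusted p under 0.05), and 2514 of the 3013 were above background on no percussion array. With slide row as a block 4 passed, and with array weights 1 in the contrast with rotation. A replicate block left 0 passing, with 1299 genes higher and 703 lower, and moved the oxidative stress median from 0.048 to 0.0082. The percussion arrays alone gave 416 genes lower, and median scaling 803 higher and 1333 lower. Median scaling gave medians of 0.30 for complement, 0.10 for NF-kB, 0.10 for lysosome, -0.12 for sterol synthesis, -0.10 for voltage-gated channels, -0.020 for oxidative stress and -0.0028 for Notch. Normexp gave 0.21 for phagocytic microglia, 0.30 for border macrophages and 0.011 for oxidative stress; array weights gave 0.24 for NF-kB and 0.022 for oxidative stress. The authors' deposited table gave 0.12 for cytokines, 0.048 for T and B cells and -0.020 for the gene Drd5. With genes above background on all 7 arrays T and B cells were at 0.0013 and monoamine receptors at -0.030; the mean of all probes gave 0.0046 for voltage-gated channels and 0.019 for GABA receptors. The cause of these moves was not tested.

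Leaving out 1 array at a time, the genes passing ranged from 0 to 19 (0 to 8 for the contrast with rotation), those higher at an unadjusted p under 0.05 from 988 to 2018 and lower from 466 to 1169, and those above background in trauma alone from 413 to 580 and in sham alone from 1 to 2. List medians ranged from 0.64 to 1.12 for meninges, 0.30 to 0.50 for border macrophages, 0.24 to 0.54 for reactive astrocytes, 0.28 to 0.50 for complement, 0.31 to 0.40 for MHC class II, 0.24 to 0.37 for phagocytic microglia, 0.17 to 0.37 for mural cells, 0.18 to 0.27 for cytokines, 0.13 to 0.23 for lysosome, 0.10 to 0.28 for NF-kB, 0.15 to 0.24 for matrix proteases, 0.21 to 0.29 for coagulation, 0.21 to 0.35 for T and B cells, 0.050 to 0.33 for choroid plexus, -0.24 to -0.15 for immediate early genes, -0.075 to -0.024 for sterol synthesis, -0.076 to -0.0072 for voltage-gated channels and -0.024 to 0.054 for oxidative stress. Without trauma replicate 3 the median of resting astrocytes was -0.016 (range over all arrays left out, -0.016 to 0.11) and that of monoamine receptors -0.029, and without trauma replicate 2 the latter was -0.055.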
